A study of Rattus norvegicus with 19 samples.

Results

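The genes described here are 42 macrophage and myeloid genes, chosen by symbol. Of these, 17 were listed as resident-macrophage genes and 25 as genes of recruited monocyte-derived cells or of myeloid cells in general. The split was made with earlier results of these data known, and some of the 17, such as Adgre1, mark macrophages in general. The count tables held 17455 genes, among them 41 of the 42 symbols, and Timd4 was not analysed here. Enough counts for testing were present for 12388 genes and for 40 of the 42 (15 resident and 25 recruited or general). Marco, a scavenger receptor, had 0 counts in every library except control 9w 3, where it had 1, and was not tested.

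RNA from the left ventricles of Sprague-Dawley rats (strain label "Wildtype"), 24 weeks old at the start, was sequenced in 19 libraries, 1 per heart. Heart failure with preserved ejection fraction (HFpEF) was modelled over 5 weeks by a high-fat diet (60% of kilocalories, from lard) and 0.5 g/L of L-NAME, which blocks nitric oxide synthesis, in drinking water. Control rats drank water free of L-NAME and ate normal chow, and were collected at week 5 (control 5w, n = 3) or week 9 (control 9w, n = 3). The HFpEF group (n = 3) was collected at week 5. The remaining diseased rats were gavaged for 4 weeks and collected at week 9. They received PBS alone (untreated, n = 3), the SGLT2 inhibitor empagliflozin at 0.35 g/kg/day (EMPA, n = 2), the antifibrotic drug pirfenidone at 0.3 g/kg/day (PFD, n = 2) or both drugs at these doses (EMPA + PFD, n = 3). The labels give every animal as male, and the paper states that the sequenced ventricles came from male rats. The treatment text speaks of equal numbers of both sexes, which the paper says of the whole animal groups.

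Resident cardiac macrophages settle in the heart early in life, renew themselves locally and clear debris and dying cells. Circulating monocytes enter after injury or under metabolic and hemodynamic stress and become macrophages that can be inflammatory or reparative. Many of the genes described here, such as those for lysosomal enzymes and Fc receptor adaptors, are shared by both kinds of cell, so in bulk tissue they report on macrophages as a whole.

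Levels are given as CPM, counts scaled to a fixed library total, after TMM normalization, which adjusts for differences in RNA composition between libraries. Differences are log2 fold changes with their standard error (SE), so that 1 is a 2-fold rise and -1 a 2-fold fall. A gene was called changed when its p, computed with edgeR's quasi-likelihood test and adjusted by Benjamini-Hochberg over the 12388 genes, was under 0.05 and the change was at least 2-fold, and only called genes are said to have risen or fallen. Groups are said not to overlap when every library of the first group lies on the same side of every library of the second. With 3 libraries against 3, an exact permutation test of a single value cannot go below a 2-sided p of 0.10, so differences were tested in the model over all genes. Lower RNA from fewer macrophages and lower RNA per macrophage cannot be told apart in bulk tissue.

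Total counts were 11628931, 13017754 and 12616559 in the 3 control 5w libraries and 12205327, 9386791 and 10857636 in the HFpEF libraries. Control 9w had 8141045, 7803050 and 9409670 counts, and untreated 9951011, 10142209 and 9640990. EMPA had 7430539 and 8061054 counts, PFD 9879949 and 10366167, and EMPA + PFD 9360259, 10318343 and 10693001. Where a gene had 0 counts, its true level could be as high as 3 counts, which is 0.215 to 0.400 CPM depending on the library. Such limits, and the intervals given, cover counting error only.

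Several libraries stood apart before any comparison. Transcripts of the Y-linked gene Eif2s3y were at 0 counts in 7 libraries (HFpEF 1 and 3, all 3 untreated and both PFD) and at 613 to 1321 counts in the other 12, against the male label. Only the HFpEF group held both kinds of library. Untreated against control 9w, EMPA + PFD against untreated and EMPA against untreated each set libraries without these counts against libraries with them, so in those comparisons the condition and the Y-linked status cannot be told apart. The rat MHC gene RT1-CE16 had at most 3 counts in every control 5w, HFpEF and EMPA library, against 922, 825 and 913 in control 9w, 583, 684 and 616 in untreated, 463 and 545 in PFD and 426, 308 and 720 in EMPA + PFD. Control 9w against control 5w, untreated against HFpEF, EMPA against untreated and the drug interaction cross that split. Time or drug and whatever underlies the split cannot be told apart there. Control 5w 1 had 496 CPM of the collagen gene Col1a1, while control 5w 2 and 3 had 9900.5 and 7974. The atrial light chain gene Myl4 was at 4.33, 1597 and 4.85 CPM in untreated and 305, 2.95 and 1381 CPM in control 9w libraries, so untreated 2, control 9w 1 and control 9w 3 held transcripts typical of atrium. Col1a1 and Myl4 were picked after their values were seen.

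Across the hearts, macrophage and myeloid transcripts were on average more abundant in both week 5 groups than in any group collected at week 9. HFpEF 1 was the highest library for 35 of the 40 tested members, and control 5w 2 for 3 more. EMPA + PFD 2 was the lowest for 18, control 9w 2 for 8 and EMPA 2 for 5. The mean log2 CPM of the 40 members was 4.68, 5.77 and 5.54 in the control 5w libraries, with control 5w 1 low, and 6.47, 4.78 and 5.80 in HFpEF, with HFpEF 2 low. It was 4.19, 3.89 and 4.42 in control 9w and 4.25, 5.21 and 4.38 in untreated, where untreated 2 was high. EMPA libraries had 4.57 and 4.31, PFD 4.38 and 4.20 and EMPA + PFD 3.98, 3.70 and 4.34. Group means were 5.33 (SD 0.574) for control 5w, 5.68 (SD 0.851) for HFpEF, 4.17 (SD 0.268) for control 9w and 4.61 (SD 0.521) for untreated. They were 4.44 (SD 0.184) for EMPA, 4.29 (SD 0.129) for PFD and 4.01 (SD 0.320) for EMPA + PFD. The spread among the 3 HFpEF hearts was the largest of the 7 groups.

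**Figure D1:**
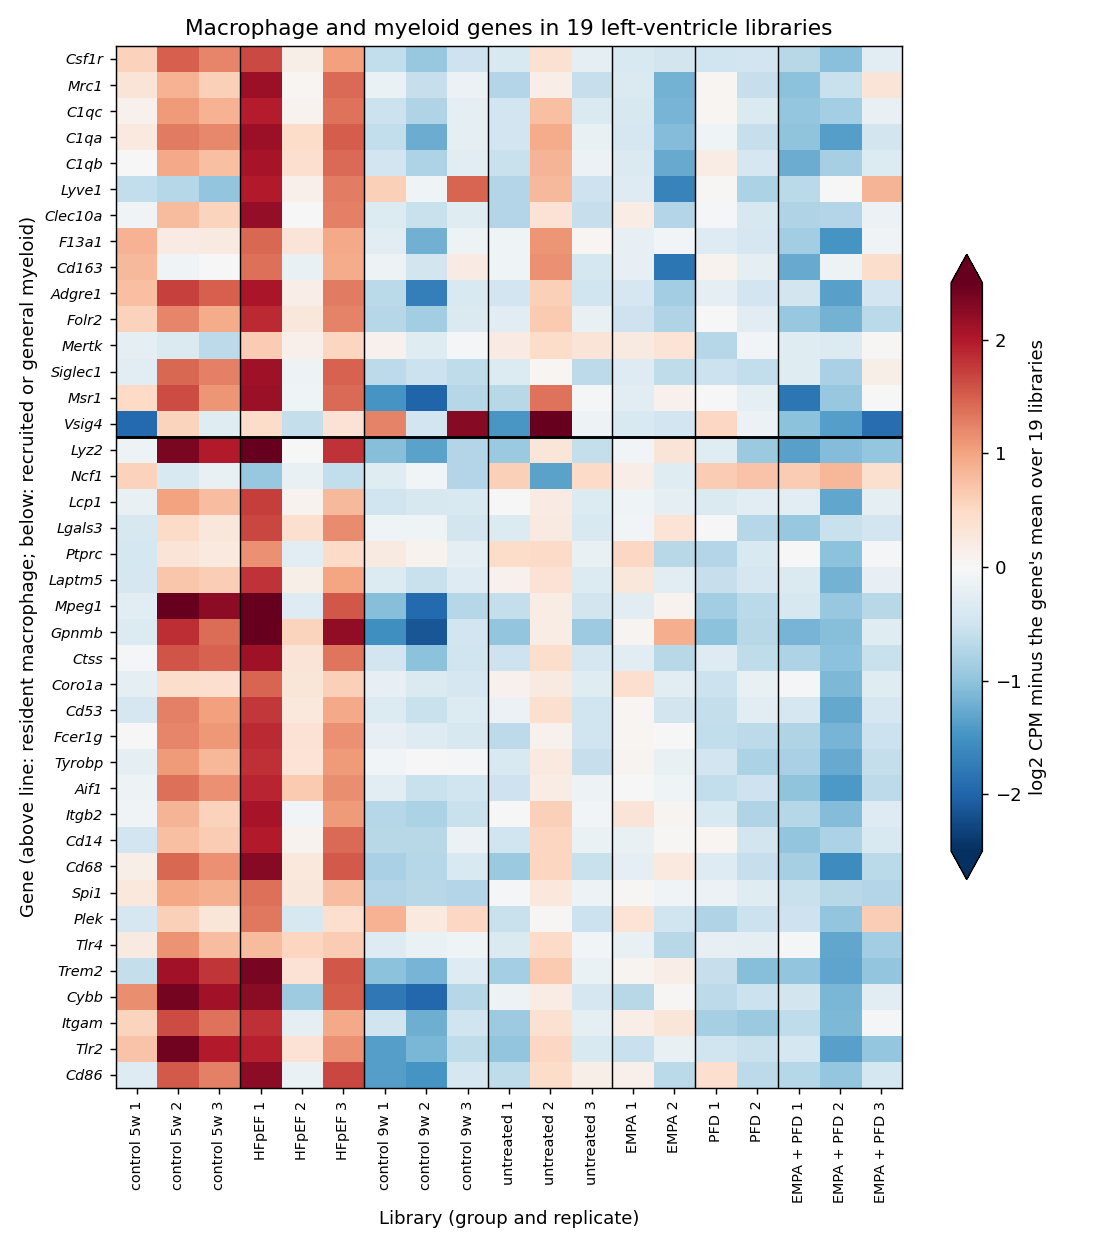
Heat map of 40 macrophage and myeloid genes (resident genes and recruited or general myeloid genes) in 19 left-ventricle libraries, colored by log2 CPM minus the gene's own mean, with the color scale ending at 2.5 on either side. HFpEF 1 holds the highest value for 35 genes and EMPA + PFD 2 the lowest for 18.

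Healthy hearts at week 9 had lower levels of most macrophage and myeloid genes than healthy hearts at week 5. Time and whatever underlies the split in RT1 counts cannot be told apart in this comparison. From control 5w to control 9w, 23 of 40 members fell, where 7.21% of all tested genes did, and 1 rose, the hyaluronan receptor gene Lyve1, where 7.46% of all genes did. The falls comprised 7 of 15 resident and 16 of 25 recruited or general myeloid genes. For 26 members every control 9w library lay below every control 5w library, against 24.7% of all genes. The median log2 fold change was -1.2 over the members (-1.11 resident, -1.21 recruited or general) and -0.04 over all genes.

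The control 5w library that stood apart did not add to this count, but several calls were lost when 1 library was left out. Without control 5w 1, 27 members were called and the median was -1.46. The count was 14 without control 5w 2, 16 without control 5w 3, 15 without control 9w 1, 14 without control 9w 2 and 19 without control 9w 3. Control 5w 2 and 3 were the most alike of all replicate pairs, at a chi-square of their counts per degree of freedom of 7.05. Each differed more from control 5w 1, at 187 and 144. Of the 24 called members, 13 kept the call without each library in turn (Adgre1, Aif1, Csf1r, Ctss, Cybb, Folr2, Itgam, Lyz2, Mpeg1, Msr1, Spi1, Tlr2 and Trem2), and 11 lost it without at least 1. No fitted change reversed its sign. Among the 11, Lcp1, Cd53, Fcer1g and Itgb2 came under 2-fold in at least 1 fit, and the others stayed above it. Over all genes 9.76% to 16.4% were called in these 6 fits. By DESeq2, 25 members and 15.8% of all genes were called.

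Among receptors of resident macrophages, Csf1r, the receptor for the growth factor that keeps macrophages alive, was at 113, 214 and 177 CPM in control 5w, 239, 83.3 and 153 in HFpEF and 49.5, 39.1 and 52.8 in control 9w. Untreated hearts had 57.9, 99.0 and 63.4 CPM, EMPA hearts 57.9 and 54.9, PFD hearts 53.3 and 54.2 and EMPA + PFD hearts 46.5, 36.5 and 63.0. All control 9w libraries lay below all control 5w libraries, HFpEF overlapped control 5w, and untreated lay above control 9w. The log2 fold change from control 5w to control 9w was -1.83 with an SE of 0.339 (edgeR's quasi-likelihood test, Benjamini-Hochberg adjusted p = 0.00141). Adgre1, an adhesion receptor used as a general macrophage marker in rodents, was at 29.0, 57.0 and 48.8 CPM in control 5w, 71.1, 19.4 and 43.0 in HFpEF and 10.7, 5.17 and 13.3 in control 9w. At week 9 with disease, Adgre1 stood at 12.2, 26.1 and 12.1 CPM untreated, 12.8 and 9.35 with EMPA, 14.5 and 12.2 with PFD and 12.5, 6.58 and 12.3 with EMPA + PFD. The control groups did not overlap, and HFpEF 2 lay below all control 5w libraries while HFpEF 1 lay above them. Its log2 fold change from control 5w to control 9w was -2.20 with an SE of 0.472 (edgeR's quasi-likelihood test, Benjamini-Hochberg adjusted p = 0.00326).

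Folr2, the folate receptor of resident macrophages, was at 22.1, 34.4 and 28.0 CPM in control 5w, 54.3, 17.97 and 35.2 in HFpEF and 8.91, 7.99 and 11.47 in control 9w. Untreated libraries had 12.03, 23.2 and 12.96 CPM, EMPA hearts 10.3 and 8.62, PFD hearts 14.7 and 12.04 and EMPA + PFD hearts 7.57, 6.34 and 9.09. Every control 9w library lay below the control 5w libraries, untreated lay above control 9w, and EMPA + PFD lay below untreated. Folr2 changed by -1.57 with an SE of 0.345 between the control groups (edgeR's quasi-likelihood test, Benjamini-Hochberg adjusted p = 0.00371).

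The 3 chains of C1q, the recognition protein of the classical complement pathway, are made in tissues mainly by macrophages. C1qc had 74.7, 146 and 128 CPM in control 5w, 272, 73.9 and 179.7 in HFpEF and 48.2, 41.6 and 59.6 in control 9w. Untreated samples had 49.8, 118 and 54.4 CPM, EMPA hearts 52.6 and 30.9, PFD hearts 72.4 and 54.1 and EMPA + PFD hearts 35.7, 38.7 and 61.4. The control groups did not overlap, HFpEF 1 was the highest of the 19 libraries, and untreated 2 stood above the other untreated libraries. C1qc fell by 1.22 on the log2 scale (SE 0.436) from control 5w to control 9w (edgeR's quasi-likelihood test, Benjamini-Hochberg adjusted p = 0.0418). The call was kept without control 5w 1 and lost without each of the other 5 libraries, with adjusted p (edgeR's quasi-likelihood test, Benjamini-Hochberg) of 0.026 to 0.136 over the 6 left out. The log2 fold change of C1qc was -1.45 to -1.02 in those fits. C1qa fell by 1.64 (SE 0.458, edgeR's quasi-likelihood test, Benjamini-Hochberg adjusted p = 0.0136), a call lost without control 9w 2, where the adjusted p was 0.0668 in a range of 0.00835 to 0.0668 over the libraries left out. Its log2 fold change was -1.89 to -1.41 in those fits. C1qb differed by -1.11 with an SE of 0.432 and was not called (edgeR's quasi-likelihood test, Benjamini-Hochberg adjusted p = 0.0594), although its control groups did not overlap.

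Mrc1, the mannose receptor, was at 90.5, 133 and 109.7 CPM in control 5w, 319, 75.6 and 194 in HFpEF and 64.7, 48.9 and 65.5 in control 9w. In untreated hearts Mrc1 was at 43.7, 81.9 and 48.7 CPM, in EMPA hearts at 56.3 and 32.1, in PFD hearts at 74.8 and 49.1 and in EMPA + PFD hearts at 35.8, 49.4 and 90.8. Control 9w lay below control 5w without overlap, and HFpEF 1 and 3 were the highest of all libraries while HFpEF 2 was below the control 5w libraries. Between the control groups Mrc1 differed by -0.89 with an SE of 0.442, which was not called (edgeR's quasi-likelihood test, Benjamini-Hochberg adjusted p = 0.128).

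Lyve1, the hyaluronan receptor of perivascular resident macrophages and of lymphatic endothelium, was at 31.4, 29.2 and 24.1 CPM in control 5w, 189.6, 52.3 and 117 in HFpEF and 72.5, 44.4 and 132 in control 9w. Untreated rats had 28.6, 84.2 and 33.6 CPM, EMPA hearts 38.1 and 14.9, PFD hearts 49.1 and 27.7 and EMPA + PFD hearts 29.8, 47.9 and 86.0. The 3 control 5w hearts were low and close together, and both HFpEF and control 9w lay above them without overlap. Untreated 2 was again above the other untreated libraries, and control 9w 1 and 3 were above control 9w 2. These 3 libraries held transcripts typical of atrium, whose part in the Lyve1 values was not tested. From control 5w to control 9w Lyve1 rose by 1.56 (SE 0.567, edgeR's quasi-likelihood test, Benjamini-Hochberg adjusted p = 0.0451). That call was kept only without control 9w 2, with adjusted p (edgeR's quasi-likelihood test, Benjamini-Hochberg) from 0.0404 to 0.184 over the 6 libraries left out in turn. Its log2 fold change was 1.05 to 1.86 in those fits.

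The scavenger receptor gene Msr1 fell by 2.55 (SE 0.662) between the control groups (edgeR's quasi-likelihood test, Benjamini-Hochberg adjusted p = 0.00933). Siglec1, a sialic acid-binding adhesion receptor, fell by 1.61 (SE 0.486, edgeR's quasi-likelihood test, Benjamini-Hochberg adjusted p = 0.0199), a call kept only without control 5w 1, with adjusted p of 0.00496 to 0.0803 over the libraries left out. Its log2 fold change was -1.97 to -1.31 in those fits. Not called between the control groups were the hemoglobin scavenger receptor Cd163 at -0.40, the lectin Clec10a at -0.87, the transglutaminase subunit F13a1 at -0.92, the receptor kinase Mertk at 0.35 and the complement receptor Vsig4 at 1.84.

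**Figure D2:**
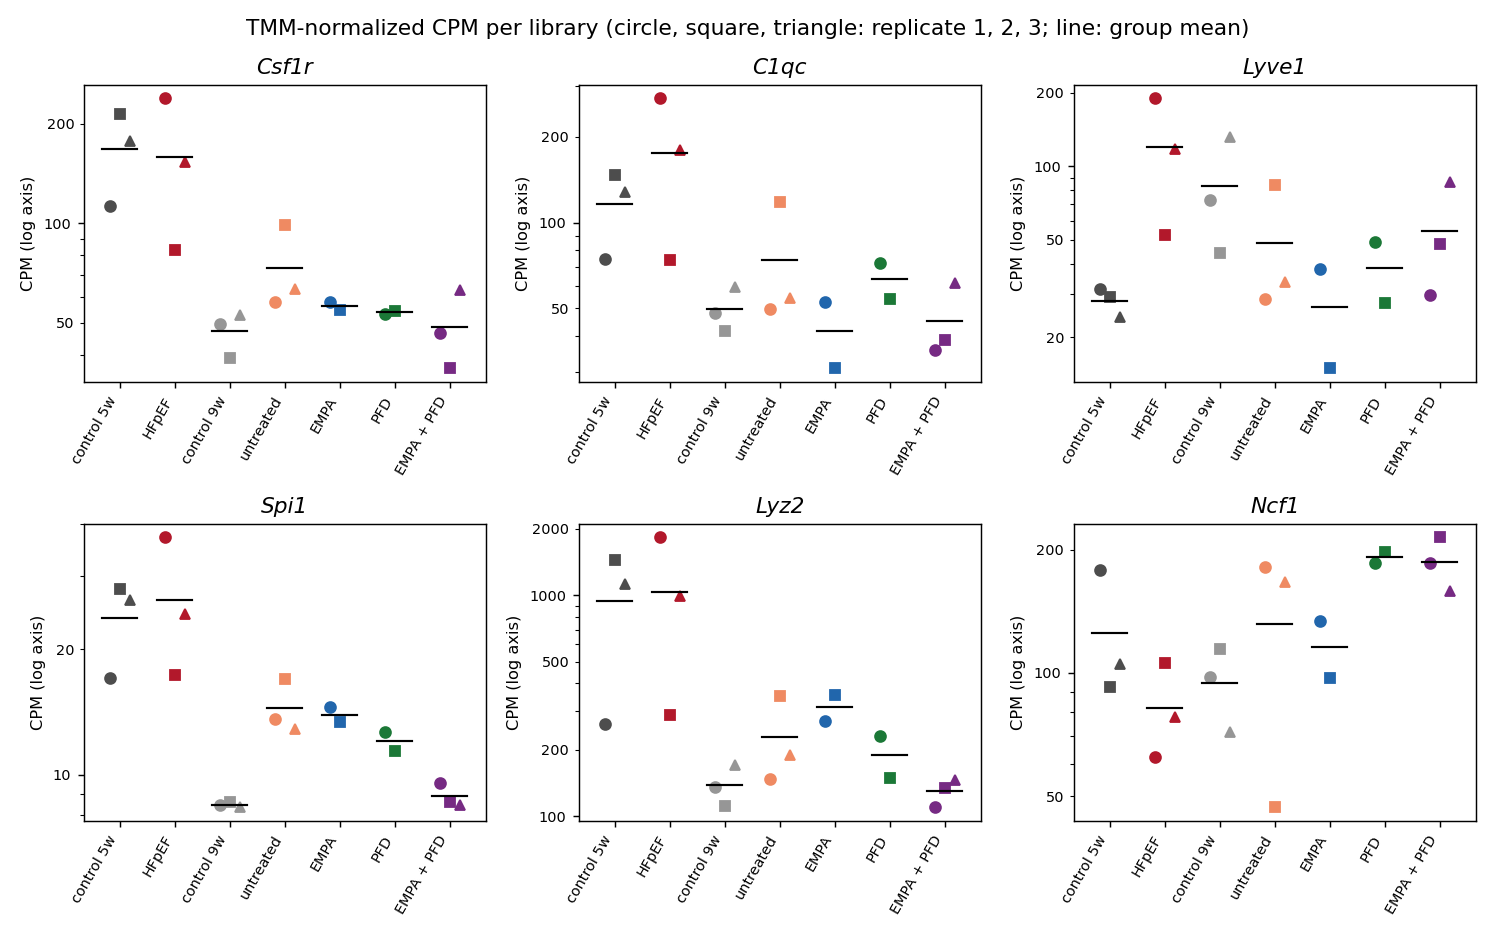
Levels of Csf1r, C1qc, Lyve1, Spi1, Lyz2 and Ncf1 in CPM on a log axis in the 7 groups, with replicates 1, 2 and 3 as circle, square and triangle and a line at each group mean. Csf1r lies between 39.1 and 52.8 CPM in control 9w, below the lowest control 5w library at 113 CPM, and Ncf1 is highest in EMPA + PFD 2 at 214 CPM.

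Spi1 encodes PU.1, the transcription factor that sets myeloid identity. It was at 17.1, 27.9 and 26.3 CPM in control 5w, 37.2, 17.3 and 24.3 in HFpEF and 8.46, 8.61 and 8.38 in control 9w. In untreated hearts Spi1 was at 13.6, 17.0 and 12.9 CPM, in EMPA hearts at 14.5 and 13.4, in PFD hearts at 12.7 and 11.4 and in EMPA + PFD hearts at 9.58, 8.61 and 8.46. The 3 control 9w values lay close together and below all control 5w values, untreated lay between them, and EMPA + PFD lay below untreated without overlap. Spi1 fell by 1.49 (SE 0.240) from control 5w to control 9w (edgeR's quasi-likelihood test, Benjamini-Hochberg adjusted p = 0.000647), the smallest p of any member in any comparison.

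The 2 members that belong to the phagocyte NADPH oxidase differed in their pattern over the libraries. Cybb, its catalytic subunit, was at 23.3, 54.4 and 44.6 CPM in control 5w, 49.5, 5.41 and 29.7 in HFpEF and 2.82, 2.46 and 6.18 in control 9w. In untreated hearts Cybb was at 9.39, 11.7 and 7.59 CPM, in EMPA hearts at 6.26 and 10.4, in PFD hearts at 6.46 and 6.995 and in EMPA + PFD hearts at 7.33, 4.54 and 8.36. HFpEF spanned from the level of control 9w 3 to that of control 5w, and untreated lay above control 9w without overlap. Between the control groups Cybb fell by 3.40 (SE 0.620), the largest fitted change of the members in this comparison (edgeR's quasi-likelihood test, Benjamini-Hochberg adjusted p = 0.0013). Ncf1, a cytosolic organizer of the same enzyme, was at 178, 92.5 and 105 CPM in control 5w, 62.3, 106 and 77.9 in HFpEF and 97.5, 114 and 71.7 in control 9w. In untreated hearts Ncf1 was at 181, 47.0 and 167 CPM, in EMPA hearts at 134 and 97.0, in PFD hearts at 185 and 198 and in EMPA + PFD hearts at 186, 214 and 159. Libraries that were high for most members, HFpEF 1 and untreated 2, were among the lowest for Ncf1, and EMPA + PFD 2 was its highest. It was called in no comparison and differed by -0.41 with an SE of 0.387 between the control groups (edgeR's quasi-likelihood test, Benjamini-Hochberg adjusted p = 0.431).

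Tlr2, a receptor for bacterial lipoproteins, was at 12.2, 40.1 and 29.6 CPM in control 5w, 28.7, 9.54 and 16.4 in HFpEF and 2.71, 3.20 and 4.69 in control 9w. In untreated hearts Tlr2 was at 3.59, 10.6 and 5.58 CPM, in EMPA hearts at 4.93 and 6.44, in PFD hearts at 5.15 and 4.94 and in EMPA + PFD hearts at 5.32, 2.75 and 3.66. Every week 9 library except untreated 2 lay below every week 5 library, and the control groups did not overlap. Tlr2 fell by 2.94 (SE 0.508, edgeR's quasi-likelihood test, Benjamini-Hochberg adjusted p = 0.000912). Tlr4, the receptor for lipopolysaccharide, differed by -0.97 with an SE of 0.301, under the 2-fold threshold (edgeR's quasi-likelihood test, Benjamini-Hochberg adjusted p = 0.0229). Its co-receptor Cd14 differed by -0.89 with an SE of 0.424 and overlapped (edgeR's quasi-likelihood test, Benjamini-Hochberg adjusted p = 0.115).

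Itgam, the alpha M integrin chain that pairs with Itgb2 in the complement receptor of phagocytes, was at 12.4, 26.3 and 21.7 CPM in control 5w, 30.2, 6.97 and 16.2 in HFpEF and 5.87, 3.44 and 5.88 in control 9w. Untreated ventricles had 4.33, 10.96 and 7.06 CPM, EMPA hearts 9.32 and 10.3, PFD hearts 4.60 and 4.32 and EMPA + PFD hearts 5.32, 3.71 and 8.04. Control 9w lay below control 5w, and both EMPA libraries lay within the range of the untreated ones. Itgam fell by 1.99 (SE 0.479, edgeR's quasi-likelihood test, Benjamini-Hochberg adjusted p = 0.00628). Itgb2 fell by 1.2 (SE 0.407, edgeR's quasi-likelihood test, Benjamini-Hochberg adjusted p = 0.0338), kept only without control 5w 1, with adjusted p of 0.021 to 0.119 over the libraries left out. Its log2 fold change was -1.41 to -0.98 in those fits.

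Fcer1g, the signaling chain shared by Fc receptors, was at 28.1, 65.6 and 59.1 CPM in control 5w, 103, 35.9 and 61.4 in HFpEF and 24.0, 22.1 and 21.0 in control 9w. In untreated hearts Fcer1g was at 17.5, 30.0 and 19.6 CPM, in EMPA hearts at 28.9 and 27.8, in PFD hearts at 18.1 and 17.6 and in EMPA + PFD hearts at 16.4, 12.3 and 19.2. All untreated libraries lay below all HFpEF libraries, and the control groups did not overlap, with control 5w 1 nearest to control 9w. Fcer1g fell by 1.19 (SE 0.347) between the control groups (edgeR's quasi-likelihood test, Benjamini-Hochberg adjusted p = 0.017). Without control 5w 2, control 5w 3 or control 9w 2 the call was lost, at adjusted p of 0.074, 0.0579 and 0.0568 (edgeR's quasi-likelihood test, Benjamini-Hochberg, range 0.00429 to 0.074). The log2 fold change of Fcer1g was -1.47 to -0.96 over the libraries left out. Tyrobp, an adaptor of activating receptors, differed by -0.70 with an SE of 0.353 and was not called (edgeR's quasi-likelihood test, Benjamini-Hochberg adjusted p = 0.134). Trem2, a lipid-sensing receptor that signals through Tyrobp, fell by 2.30 (SE 0.605), with overlapping groups (edgeR's quasi-likelihood test, Benjamini-Hochberg adjusted p = 0.00993).

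Among lysosomal and phagocytic genes, Lyz2, the lysozyme gene of macrophages, was at 261, 1451 and 1125 CPM in control 5w, 1835, 287 and 993 in HFpEF and 136, 112 and 170.4 in control 9w. In untreated hearts Lyz2 was at 148, 352 and 189 CPM, in EMPA hearts at 271 and 353, in PFD hearts at 231 and 149 and in EMPA + PFD hearts at 110.2, 134 and 146. Control 5w 1 and HFpEF 2 were far below the other week 5 libraries, and all control 9w libraries were lower than these. Lyz2 fell by 2.76 (SE 0.623, edgeR's quasi-likelihood test, Benjamini-Hochberg adjusted p = 0.00429). Mpeg1, a pore-forming protein of phagosomes, was at 39.6, 274 and 224 CPM in control 5w, 284, 38.0 and 139 in HFpEF and 22.4, 12.2 and 28.9 in control 9w. In untreated hearts Mpeg1 was at 31.3, 54.0 and 34.2 CPM, in EMPA hearts at 39.4 and 50.3, in PFD hearts at 26.0 and 29.6 and in EMPA + PFD hearts at 35.8, 24.4 and 29.0. Control 5w 1 and HFpEF 2 were again near the level of the later groups, and control 9w lay below control 5w. Mpeg1 fell by 3.08 (SE 0.679, edgeR's quasi-likelihood test, Benjamini-Hochberg adjusted p = 0.00381).

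Gpnmb, a lysosomal membrane glycoprotein of lipid-laden macrophages, was at 37.1, 171 and 125 CPM in control 5w, 495, 69.6 and 219.9 in HFpEF and 16.2, 10.6 and 33.9 in control 9w. In untreated hearts Gpnmb was at 23.6, 53.9 and 25.2 CPM, in EMPA hearts at 49.7 and 89.2, in PFD hearts at 23.1 and 29.0 and in EMPA + PFD hearts at 20.8, 22.5 and 38.3. Its highest value was 46.8 times its lowest, the widest range of any member except Vsig4, and control 9w lay below control 5w. Gpnmb fell by 2.45 (SE 0.679, edgeR's quasi-likelihood test, Benjamini-Hochberg adjusted p = 0.0131). The call was lost without control 5w 2, control 9w 1 or control 9w 2, at adjusted p of 0.0547, 0.0525 and 0.0627 (edgeR's quasi-likelihood test, Benjamini-Hochberg, range 0.00546 to 0.0627). The protease gene Ctss fell by 1.82 (SE 0.444, edgeR's quasi-likelihood test, Benjamini-Hochberg adjusted p = 0.00671). Cd68, a lysosomal glycoprotein, fell by 1.65 (SE 0.479, edgeR's quasi-likelihood test, Benjamini-Hochberg adjusted p = 0.0163), a call lost without the same 3 libraries as Gpnmb, with adjusted p up to 0.0658 and down to 0.00866 over those left out. Its log2 fold change was -1.93 to -1.38 in those fits. Laptm5, another lysosomal membrane protein, differed by -0.78 and was not called (edgeR's quasi-likelihood test, Benjamini-Hochberg adjusted p = 0.116).

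Among cytoskeletal and cytosolic genes, Lcp1, an actin-bundling protein of leukocytes, was at 89.0, 204 and 174 CPM in control 5w, 335, 108 and 179 in HFpEF and 72.3, 77.0 and 78.0 in control 9w. In untreated hearts Lcp1 was at 101, 117 and 79.9 CPM, in EMPA hearts at 93.9 and 87.3, in PFD hearts at 78.5 and 83.02 and in EMPA + PFD hearts at 84.1, 40.9 and 86.4. Control 9w lay below control 5w by a small gap, and untreated lay above control 9w. Lcp1 fell by 1.04 (SE 0.372, edgeR's quasi-likelihood test, Benjamini-Hochberg adjusted p = 0.0418), kept only without control 5w 1, with adjusted p of 0.0139 to 0.158 over the libraries left out. Its log2 fold change was -1.31 to -0.80 in those fits. Aif1, a calcium-binding protein of activated macrophages, was at 20.0, 56.7 and 48.1 CPM in control 5w, 81.7, 34.2 and 49.1 in HFpEF and 18.2, 14.8 and 15.3 in control 9w. In untreated hearts Aif1 was at 15.1, 24.8 and 20.0 CPM, in EMPA hearts at 22.0 and 20.3, in PFD hearts at 14.2 and 15.1 and in EMPA + PFD hearts at 10.8, 7.89 and 13.7. Untreated lay below HFpEF, EMPA + PFD lay below untreated, and the control groups did not overlap. Aif1 fell by 1.37 (SE 0.355) between them (edgeR's quasi-likelihood test, Benjamini-Hochberg adjusted p = 0.00904).

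Lgals3, which encodes the secreted lectin galectin-3, was at 62.0, 113 and 99.6 CPM in control 5w, 258, 108 and 184 in HFpEF and 75.7, 75.8 and 59.4 in control 9w. In untreated hearts Lgals3 was at 63.9, 94.8 and 62.5 CPM, in EMPA hearts at 78.0 and 103, in PFD hearts at 80.8 and 49.8 and in EMPA + PFD hearts at 41.98, 55.2 and 58.5. HFpEF 2 lay within the control 5w range and the other HFpEF libraries above it, and all untreated libraries lay below all HFpEF libraries. Between the control groups the difference was -0.38 with an SE of 0.302, not called (edgeR's quasi-likelihood test, Benjamini-Hochberg adjusted p = 0.34).

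The remaining called members were Cd86, a costimulatory ligand, which fell by 2.22 (SE 0.656, edgeR's quasi-likelihood test, Benjamini-Hochberg adjusted p = 0.018), and Cd53, a leukocyte tetraspanin, which fell by 1.21 (SE 0.417) with overlapping groups (edgeR's quasi-likelihood test, Benjamini-Hochberg adjusted p = 0.0366). The Cd86 call was kept only without control 5w 1 or control 9w 3 and had adjusted p up to 0.0755 (down to 0.00692), and the Cd53 call was kept only without control 5w 1, with adjusted p of 0.00616 to 0.152 (edgeR's quasi-likelihood test, Benjamini-Hochberg). Log2 fold changes over the libraries left out were -2.75 to -1.86 for Cd86 and -1.56 to -0.90 for Cd53. Not called were the leukocyte phosphatase Ptprc at -0.05, the actin regulator Coro1a at -0.57 and the platelet and leukocyte protein Plek at 0.35. Ptprc, present on all leukocytes, differed least between the control groups of all 40 members. Over the 40 members, a gene's highest library was from 2.58 (Mertk) to 327 (Vsig4) times its lowest, and 21.0 times for Msr1, 17.0 for Cd86 and 14.9 for Cd68.

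HFpEF hearts at week 5 were set against healthy hearts of the same age to find what L-NAME and the high-fat diet changed. Of 40 members 2 rose, Lyve1 and Lgals3, where 4.28% of all tested genes rose. The libraries did not overlap for 2 members, Lyve1 and Mertk, both higher in HFpEF, against 18.6% of all genes higher without overlap. None fell (0 by edgeR's quasi-likelihood test, 0 lower at an unadjusted p under 0.05 and 0 lower by DESeq2), where 4.41%, 18.1% and 5.28% of all genes were lower by these measures. Fitted differences were positive for 32 members and negative for 8, with a median of 0.44 (0.53 resident, 0.40 recruited or general) beside 0.02 over all genes. The range ran from -0.61 (Ncf1) to 2.09 (Lyve1). The median was -0.00251 without HFpEF 1 and 0.74 without HFpEF 2.

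Lyve1, at 189.6, 52.3 and 117 CPM in HFpEF against 31.4, 29.2 and 24.1 CPM, rose by 2.09 (SE 0.574, edgeR's quasi-likelihood test, Benjamini-Hochberg adjusted p = 0.0214). Each HFpEF library lay above each control 5w library, and HFpEF 2, the only HFpEF library with Y-linked counts, was the nearest. The Lyve1 call was lost without control 5w 1 (0.0537), control 5w 2 (0.0547), control 5w 3 (0.0694) or HFpEF 1 (0.081), as adjusted p in a range of 0.017 to 0.081 (edgeR's quasi-likelihood test, Benjamini-Hochberg adjusted). Its log2 fold change was 1.59 to 2.44 over the libraries left out. With only the libraries that had Y-linked counts, an alternative chosen after seeing the data, the log2 fold change was 0.95, and with a term for Y-linked counts it was 0.89, neither called.

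Lgals3, at 258, 108 and 184 CPM in HFpEF against 62.0, 113 and 99.6 CPM, rose by 1.00 (SE 0.303, edgeR's quasi-likelihood test, Benjamini-Hochberg adjusted p = 0.0319). Only control 5w 2 was above the lowest HFpEF library. The call was lost without control 5w 1 (0.112), control 5w 3 (0.0638), HFpEF 1 (0.141) or HFpEF 3 (0.0592), as adjusted p in a range of 0.0134 to 0.141 (edgeR's quasi-likelihood test, Benjamini-Hochberg adjusted). The log2 fold change of Lgals3 was 0.67 to 1.27 over the libraries left out. It was 0.30 with only the libraries that had Y-linked counts and 0.24 with a term for them. Mertk, a receptor kinase that clears apoptotic cells and was picked out after its values were seen, was at 20.6, 14.4 and 19.2 CPM in HFpEF against 11.02, 10.2 and 8.28 in control 5w. Its difference of 0.88 with an SE of 0.193 was under the 2-fold threshold (edgeR's quasi-likelihood test, Benjamini-Hochberg adjusted p = 0.00847).

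The number of members called in HFpEF against control 5w was 0 without control 5w 1, without control 5w 3 and without HFpEF 1, with 3, 4 and 3 members higher at an unadjusted p under 0.05, beside 15.6%, 14.7% and 15.7% of all genes, and, without HFpEF 1, 2 lower, beside 15.2%. It was 1 without control 5w 2 (Lgals3) or HFpEF 3 (Lyve1), counts that stand without a share of all genes and describe these members alone. It was 6 without HFpEF 2 (Cd14, Clec10a, Itgb2, Lgals3, Lyve1 and Mertk, all higher, beside 3.98% of all genes). DESeq2 called Lyve1 alone. With the Y-linked term, or only the libraries with Y-linked counts, HFpEF 2 alone is set against control 5w, and it is assumed to vary like the other groups. Cybb was called lower, as 1 member, beside 3.23% and 4.11% of all genes, and the median was -0.53 and -0.47.

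**Figure D3:**
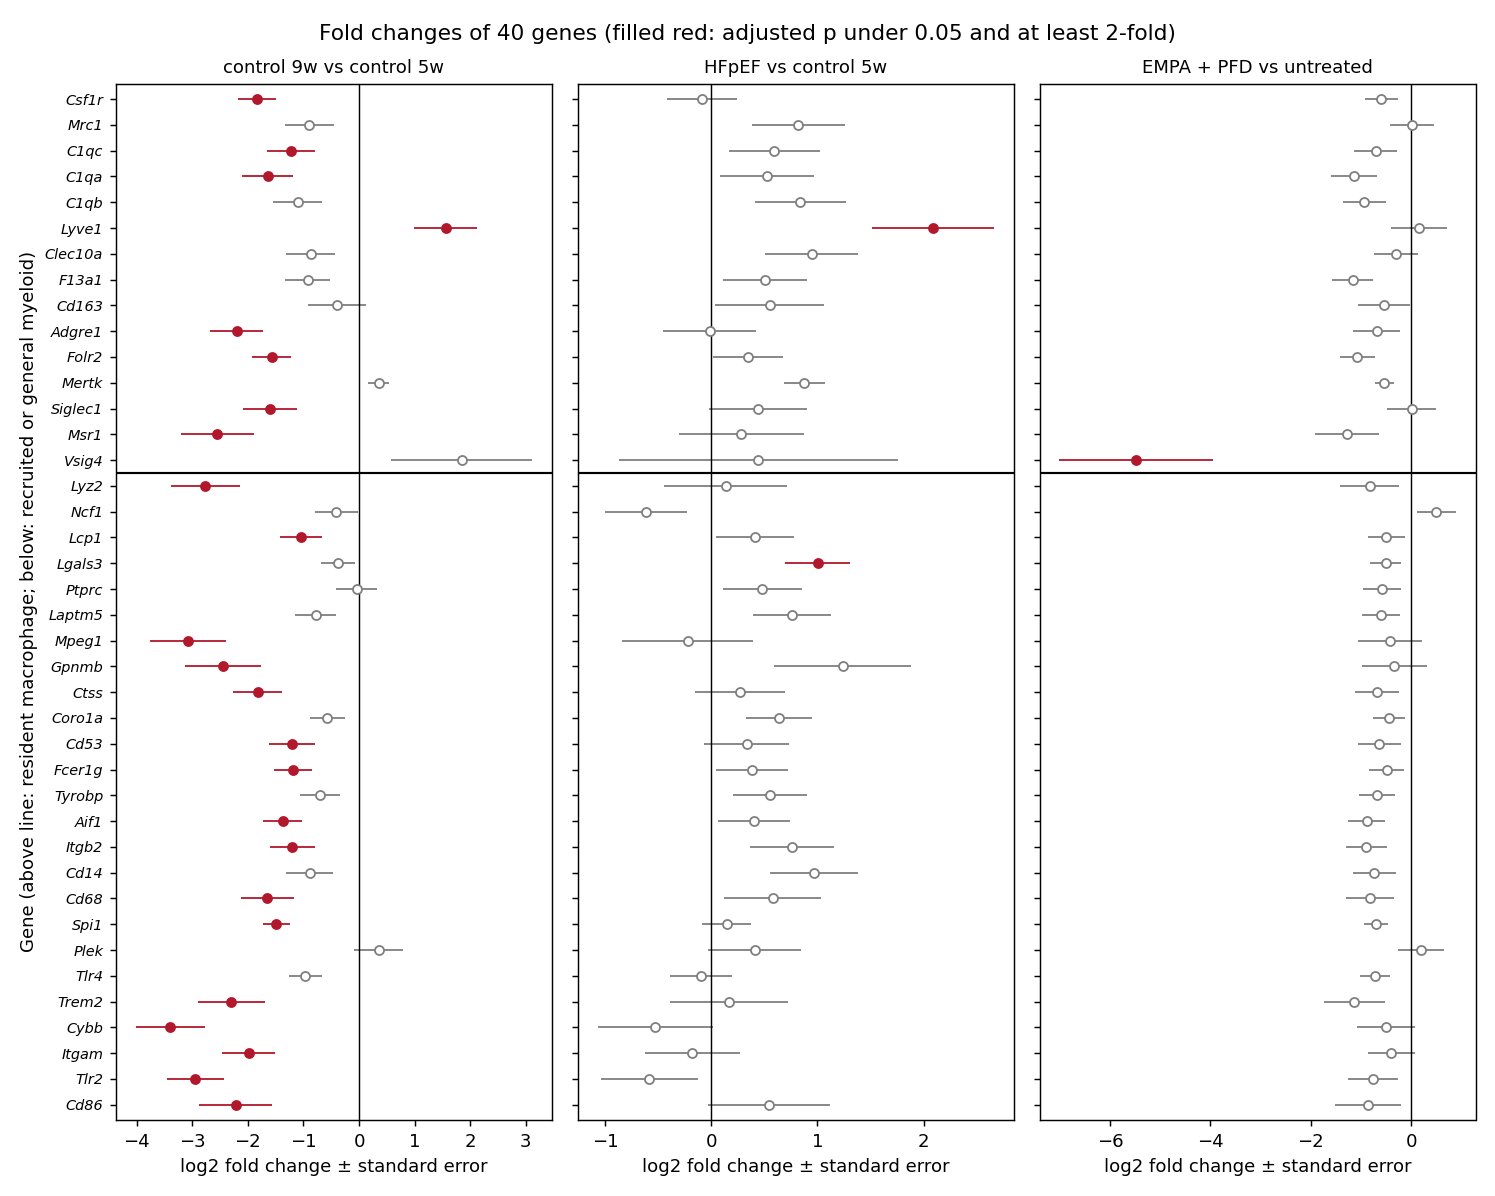
Log2 fold changes of 40 macrophage and myeloid genes with their standard errors in control 9w against control 5w, HFpEF against control 5w and EMPA + PFD against untreated, with called genes as filled red points. The calls number 24, 2 and 1.

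At week 9, untreated disease was set against healthy hearts of the same age. Of 40 members 0 were called, where 0.912% of all tested genes were, by edgeR's quasi-likelihood test, and DESeq2 also called 0. At an unadjusted p under 0.05, 6 members differed, all higher in untreated (Folr2, F13a1, Msr1, Cybb, Itgb2 and Spi1), against 18.2% of all genes in either direction (8% higher and 10.2% lower). Spi1 had the smallest p, at 13.6, 17.0 and 12.9 CPM in untreated against 8.46, 8.61 and 8.38 in control 9w, a difference of 0.77 with an SE of 0.241 (edgeR's quasi-likelihood test, Benjamini-Hochberg adjusted p = 0.101). The median was 0.54 (0.64 resident, 0.48 recruited or general) against 0.01 over all genes, with 36 of 40 positive. Without untreated 2 it was 0.22, with 2 members higher and 3 lower at an unadjusted p under 0.05, beside 13.3% and 12.9% of all genes, and without control 9w 2 it was 0.42, with 1 higher and 0 lower, beside 5.03% and 7.2%. Cybb (1.31, SE 0.607) and Msr1 (1.87, SE 0.660) had the largest differences among these 6. Plek had the lowest value, -0.90 (SE 0.451). The groups differ wholly in Y-linked counts, so disease and that difference cannot be told apart, and the median was -0.87 with the term, which rests on the HFpEF libraries, with 0 members higher and 8 lower at an unadjusted p under 0.05, beside 4.53% and 7.1% of all genes.

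Diseased hearts were compared between week 5 and week 9 as untreated against HFpEF. No member was called (0 of 40) by edgeR's quasi-likelihood test, where 0.194% of all genes were, while DESeq2 called 18 lower, beside 1.84% of all genes. At an unadjusted p under 0.05, 31 members (10 resident, 21 recruited or general) were lower at week 9, against 12.7% of all genes, and 1, Vsig4, was higher, against 10.1%. The median was -1.29 (-1.24 resident, -1.34 recruited or general) with 38 of 40 negative, and -0.01 over all genes. Fcer1g had the smallest p, at 103, 35.9 and 61.4 CPM in HFpEF and 17.5, 30.0 and 19.6 in untreated, a difference of -1.57 with an SE of 0.348 (edgeR's quasi-likelihood test, Benjamini-Hochberg adjusted p = 0.0621). Gpnmb had the largest negative difference, -2.93 with an SE of 0.684 (edgeR's quasi-likelihood test, Benjamini-Hochberg adjusted p = 0.0662). Without HFpEF 1, the library highest for most members, 0 were called, 14 were lower at an unadjusted p under 0.05, beside 6.21% of all genes, and the median was -0.81. Calls appeared without HFpEF 2 or untreated 2, which stood closest to the other group. Without HFpEF 2, 24 members fell (8 resident and 16 recruited or general), beside 1.68% of all genes, and without untreated 2, 21 fell, beside 3.21% of all genes, and Ncf1 rose. The 3 other fits that left out 1 library called 0, with 30, 24 and 24 members lower at an unadjusted p under 0.05 (without HFpEF 3, untreated 1 and untreated 3), beside 1428 of 12372, 867 of 12385 and 933 of 12388 genes. The Y-linked term takes HFpEF 2 out of this comparison and called the same 24 members as the fit without it, so it is no further test. The control groups at the same times gave -1.2 as their median, and both comparisons cross the split in RT1 counts.

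The combined drugs were compared with PBS at week 9 to see what EMPA + PFD changed in established disease. Of 40 members 1 fell, Vsig4, where 1.48% of all genes fell. At an unadjusted p under 0.05, 10 members were lower (6 resident and 4 recruited or general), against 16.1% of all genes, and 0 were higher, against 16.6%. The median was -0.65 (-0.69 resident, -0.63 recruited or general) with 35 of 40 negative, and -0.03 over all genes. Left without untreated 2, the median was -0.34. With the Y-linked term, whose size comes from HFpEF 2 against HFpEF 1 and 3, it was 0.72, of the opposite sign, with 4 members higher and 0 lower at an unadjusted p under 0.05, beside 12.2% and 11% of all genes. The direction over the members therefore depends on how Y-linked counts are treated.

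Among the 10 were Folr2 at -1.07 with an SE of 0.349 (edgeR's quasi-likelihood test, Benjamini-Hochberg adjusted p = 0.0572), with every EMPA + PFD library (7.57, 6.34 and 9.09 CPM) below every untreated library (12.03, 23.2 and 12.96 CPM). Spi1, at 9.58, 8.61 and 8.46 CPM against 13.6, 17.0 and 12.9, differed by -0.71 with an SE of 0.240 (edgeR's quasi-likelihood test, Benjamini-Hochberg adjusted p = 0.0645). F13a1 differed by -1.16 with an SE of 0.406 (edgeR's quasi-likelihood test, Benjamini-Hochberg adjusted p = 0.0695), with 21.9, 14.2 and 37.9 CPM against 37.0, 86.8 and 41.7 and overlapping groups. Mertk, Aif1 and Itgb2 lay below untreated without overlap, at -0.53, -0.89 and -0.89. C1qa, C1qb and Tlr4 overlapped, at -1.13, -0.93 and -0.72. DESeq2 called F13a1, Folr2 and Vsig4 lower, beside 2.41% of all genes.

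The Vsig4 result came from 1 heart. Vsig4, a complement receptor of resident macrophages picked out after its values were seen, had 2, 380 and 8 counts in the untreated libraries and 3, 2 and 1 in EMPA + PFD. It had 1, 19 and 9 counts in control 5w, 19, 6 and 14 in HFpEF, 22, 5 and 53 in control 9w, 5 and 5 in EMPA and 13 and 8 in PFD. Untreated 2 alone was high, and control 9w 3 was the next highest. The summed ratio of untreated to EMPA + PFD was 54.8 (390 against 6 counts, 95% exact interval of counting error 25.0 to 150.3), and 2.32 without untreated 2 (10 against 6 counts, 0.764 to 7.76). The fitted change was -5.48 with an SE of 1.53, a value that depends on the prior count (edgeR's quasi-likelihood test, Benjamini-Hochberg adjusted p = 0.0352). Without untreated 2 it was -1.16 with an adjusted p of 0.612, and the call was also lost without EMPA + PFD 1 (0.0567), 2 (0.134) or 3 (0.112), in a range of 0.0113 to 0.612 (edgeR's quasi-likelihood test, Benjamini-Hochberg adjusted). The number of members called was 3 without untreated 1 (F13a1, Folr2 and Vsig4, beside 2.76% of all genes lower), 1 without EMPA + PFD 1 (Tlr4, a count not set against all genes), and 0 without untreated 2, EMPA + PFD 2 or EMPA + PFD 3, where 1, 3 and 11 members were lower at an unadjusted p under 0.05, beside 9.47%, 9.7% and 11.2% of all genes. Without untreated 3 it was 1, Vsig4, with 10 members and 14.2% of all genes lower at an unadjusted p under 0.05. Treated and untreated hearts also differ wholly in Y-linked counts, so the drugs and that difference cannot be told apart.

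Each drug alone was compared with PBS on 2 treated libraries. With EMPA 0 of 40 members were called by edgeR's quasi-likelihood test, where 0.0404% of all genes were, and DESeq2 called 0. Only Vsig4 had an unadjusted p under 0.05, and was lower (1 member, beside 498 of 12388 genes lower). The median was -0.17, at -0.61 for resident genes, of which 14 of 15 were negative, and -0.02 for recruited or general myeloid genes, of which 13 of 25 were negative. The difference between the 2 lists was not tested. With the Y-linked term the EMPA median was 1.10, of the opposite sign, with 15 members higher and 0 lower at an unadjusted p under 0.05, beside 7.5% and 5.23% of all genes. Gpnmb, at 49.7 and 89.2 CPM with EMPA and 23.6, 53.9 and 25.2 untreated, had the highest value, 1.02 with an SE of 0.711 (edgeR's quasi-likelihood test, Benjamini-Hochberg adjusted p = 0.753). With PFD 0 of 40 were called by edgeR's quasi-likelihood test, where 0.00807% of all genes were, and DESeq2 called 0. Mertk and Vsig4, 2 members, were lower at an unadjusted p under 0.05, beside 336 of 12388 genes. The median was -0.38 (-0.35 resident, -0.38 recruited or general), with 37 of 40 negative. Mertk, at 7.996 and 12.6 CPM with PFD and 15.2, 18.2 and 16.4 untreated, differed by -0.69 with an SE of 0.220 (edgeR's quasi-likelihood test, Benjamini-Hochberg adjusted p = 0.786). PFD and untreated libraries match in Y-linked and in RT1 counts. Without untreated 2 the medians were 0.10 for EMPA and -0.00778 for PFD.

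Whether the drugs together differed from the sum of their separate effects was tested as an interaction. Of 40 members 0 were called by edgeR's quasi-likelihood test, where 0.00807% of all genes were. At an unadjusted p under 0.05 it was 0 as well, beside 1131 of 12388 genes, and DESeq2 called 0. The median was -0.03 (0.27 resident, -0.15 recruited or general), and -0.32 to 0.19 over the 10 libraries left out in turn, so its sign was not fixed. The smallest p was that of Lyve1, 1.40 with an SE of 0.903 (edgeR's quasi-likelihood test, Benjamini-Hochberg adjusted p = 0.675). All drug comparisons share the 3 untreated libraries. EMPA is the only group in the interaction near 0 in RT1-CE16, so the interaction crosses that split. The drugs and whatever underlies it cannot be told apart there.

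The effect of disease at week 5 minus that at week 9 asks whether disease acted differently at the 2 times. Of 40 members 1 had a higher difference at week 5, Lyve1, where 5.67% of all genes did. The 5 week and 9 week effects on Lyve1 were 2.09 and -0.76, and their difference was 2.85 with an SE of 0.795 (edgeR's quasi-likelihood test, Benjamini-Hochberg adjusted p = 0.0224). It was called in 7 of the 12 fits that left out 1 library, and lost without control 5w 3 (0.0505), HFpEF 1 (0.0527), control 9w 3 (0.0512), untreated 1 (0.0641) or untreated 3 (0.0568), as adjusted p (edgeR's quasi-likelihood test, Benjamini-Hochberg) in a range of 0.00572 to 0.0641. Without HFpEF 2, Lgals3 and Lyve1 were called (2), without untreated 2 Lyve1 and, lower, Ncf1 (2), and without HFpEF 1 Cybb, lower (1), with 0 called without control 5w 3, control 9w 3, untreated 1 or untreated 3 (1, 2, 1 and 1 higher and 0, 2, 2 and 2 lower at an unadjusted p under 0.05, beside 14.6% to 18% and 13.6% to 17.4% of all genes). The counts of 1 and 2 stand without a share of all genes in those fits and describe these members alone. In the main fit 702 of 12388 genes were called higher and 787 lower. At an unadjusted p under 0.05 2 members were higher, Lyve1 and Lgals3 (0.93), and 2 lower, Cybb (-1.84) and Tlr2 (-1.48), beside 17.9% of all genes higher and 17.4% lower. The median was -0.01, and -0.48 to 0.29 over the 12 libraries left out in turn. The 4 groups also differ in Y-linked and RT1 counts, so the time and those differences cannot be told apart.

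A further list held 50 genes around macrophage supply and function (growth factors, Fc and complement receptors and their signaling partners), of which 47 were tested and Itgax, Cd33 and Ccr2 were not analysed here. From control 5w to control 9w, 19 of 47 fell, where 7.21% of all tested genes did, and 1 rose, where 7.46% did, with a median of -1.10. In HFpEF against control 5w, where 4.28% of all genes rose and 4.41% fell, 2 of the list rose and 1 fell, with a median of 0.33. Those were Cebpb, a transcription factor of myeloid differentiation, at 1.90 with an SE of 0.443 (edgeR's quasi-likelihood test, Benjamini-Hochberg adjusted p = 0.0108), the inhibitory receptor Cd300a at 1.78 with an SE of 0.520 (edgeR's quasi-likelihood test, Benjamini-Hochberg adjusted p = 0.0277) and the complement receptor C3ar1 at -1.2 with an SE of 0.389 (edgeR's quasi-likelihood test, Benjamini-Hochberg adjusted p = 0.0419). With EMPA + PFD, 3 of 47 fell, where 1.48% of all genes did, and 0 rose, where 290 of 12388 genes did. EMPA + PFD and untreated hearts differ wholly in Y-linked counts, so the drugs and that difference cannot be told apart. Values for the 3 genes are from the main fit alone. Csf1, the ligand of the Csf1r receptor, was at 35.2, 21.2 and 29.3 CPM with EMPA + PFD and 54.5, 82.1 and 62.4 CPM untreated, without overlap, and fell by 1.22 (SE 0.204, edgeR's quasi-likelihood test, Benjamini-Hochberg adjusted p = 0.00677). The NADPH oxidase subunit Cyba fell by 1.03 (SE 0.243, edgeR's quasi-likelihood test, Benjamini-Hochberg adjusted p = 0.0209), and the chemokine Cx3cl1 by 1.15 (SE 0.317, edgeR's quasi-likelihood test, Benjamini-Hochberg adjusted p = 0.0338). By the same test, 0 were called in untreated against control 9w (6 higher and 1 lower at an unadjusted p under 0.05), untreated against HFpEF (1 higher, 34 lower), EMPA (1 higher, 0 lower) and PFD (0 higher, 1 lower). Of all 12388 genes, 991 were higher and 1268 lower by that p in untreated against control 9w. These numbers were 1246 and 1571 in untreated against HFpEF, 571 and 498 with EMPA and 310 and 336 with PFD. Lpl, for lipoprotein lipase, had the most counts of the list, whose summed CPM was 6098, 7314 and 7087 in control 5w, 8782, 4775 and 7306 in HFpEF, 5523, 5431 and 4961 in control 9w, 6054, 4894 and 5041 in untreated, 5045 and 4399 in EMPA, 5810.4 and 5816 in PFD and 5923, 7528 and 6983 in EMPA + PFD libraries.

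Markers of other cells moved beside the macrophage genes, and their part in these results was not tested. Counts are of the tested genes of each list. Of all tested genes, 4.28% rose and 4.41% fell in HFpEF, and 7.46% rose and 7.21% fell from control 5w to control 9w. With EMPA + PFD 290 of 12388 genes rose and 183 fell. HFpEF 1 and 3 and all untreated libraries lacked Y-linked counts, which all control 5w and EMPA + PFD libraries had. Condition and Y-linked status were not separated for these lists or those below. Of 8 fibroblast genes 6 fell from control 5w to control 9w, and 0 were called in HFpEF or EMPA + PFD (1 and 0 at an unadjusted p under 0.05). Their summed CPM, led by Col3a1, was 4505, 44963 and 36468 in control 5w, 17219, 9629 and 12721 in HFpEF, 4324, 3073 and 4606 in control 9w, 3922, 8458 and 3756 in untreated, 3724 and 7682 in EMPA, 4454 and 3864 in PFD and 4671, 2095 and 3979 in EMPA + PFD libraries. Control 5w 1 was as low as control 9w in this sum, while the members in that library lay between. Of 8 endothelial genes 6 rose from control 5w to control 9w, 2 in HFpEF (Esam 1.17, Egfl7 1.14), and Egfl7 fell by 1.08 with EMPA + PFD. Their summed CPM, led by Kdr, was 1734, 1299 and 1521 in control 5w, 1339.7, 3411 and 2575 in HFpEF, 3510.3, 3975 and 2920.2 in control 9w, 2763, 2787 and 3175 in untreated, 2859.9 and 2177 in EMPA, 2465 and 2470.0 in PFD and 1970.0, 1657 and 1638 in EMPA + PFD libraries, lowest in control 5w 2 and HFpEF 1, which were among the highest for the members. Of 9 monocyte genes, led in counts by Fn1, 3 fell (Cx3cr1 -3.41, Fcgr1a -1.66, Spn -1.13) and 2 rose (Ly6c 2.26, Nr4a1 1.94) between the control groups, Nr4a1 rose in HFpEF (2.17) and was higher in untreated than in control 9w (1.93) and HFpEF (1.70), and 0 were called with EMPA + PFD (3 lower at an unadjusted p under 0.05). Their summed CPM was 315, 1776 and 1522 in control 5w, 1936, 420.4 and 1007 in HFpEF, 469.7, 207 and 872 in control 9w, 397, 1427 and 574 in untreated, 272 and 943 in EMPA, 375 and 312 in PFD and 423, 331 and 316 in EMPA + PFD libraries.

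Lyve1 is also on the list of 6 lymphatic endothelial genes. In HFpEF 4 of them, Lyve1 among these, rose, 1 fell and Pdpn was not called, beside 4.28% of all genes rising and 4.41% falling. The chemokine Ccl21, its most counted gene, rose by 3.38 (SE 0.713, edgeR's quasi-likelihood test, Benjamini-Hochberg adjusted p = 0.00722), the receptor Flt4 by 1.09 (SE 0.252, edgeR's quasi-likelihood test, Benjamini-Hochberg adjusted p = 0.0105) and Reln by 2.44 (SE 0.598, edgeR's quasi-likelihood test, Benjamini-Hochberg adjusted p = 0.0139), while Prox1, the transcription factor of lymphatic identity, fell by 1.29 (SE 0.301, edgeR's quasi-likelihood test, Benjamini-Hochberg adjusted p = 0.0111). Their summed CPM was 129, 200.4 and 122 in control 5w, 1301, 305 and 543 in HFpEF, 249.5, 236 and 292 in control 9w, 233, 222 and 157 in untreated, 119 and 107 in EMPA, 140.0 and 178 in PFD and 168, 190.1 and 329.8 in EMPA + PFD libraries. HFpEF 1 was the highest in this sum as in Lyve1, and which cells supplied Lyve1 was not tested. With EMPA + PFD 0 of the 6 were called (1 higher and 1 lower at an unadjusted p under 0.05), and from control 5w to control 9w Lyve1 and Flt4 (1.03) rose while Prox1 (-1.13) and Pdpn (-1.05) fell. Of 13 T, B and NK cell genes, led in counts by Cd4, 6 rose in HFpEF, beside 4.28% of all genes. The first by p were Cd2 (1.72), Cd8a (1.85), Cd3d (1.83) and Lck (1.23). With EMPA + PFD 0 were called (4 lower at an unadjusted p under 0.05, beside 16.1% of all genes). From control 5w to control 9w Cd2 rose (1.53) and Cd4 fell (-2.0), and Cd3e was higher in untreated than in control 9w. Their summed CPM was 85.4, 129 and 117 in control 5w, 246, 110.2 and 175 in HFpEF, 68.7, 50.7 and 59.8 in control 9w, 120.2, 128 and 75.7 in untreated, 109 and 61.7 in EMPA, 55.2 and 94.2 in PFD and 82.5, 41.6 and 82.9 in EMPA + PFD libraries.

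Atrial genes were high in the libraries in which Vsig4 was high. Of 6 atrial genes, led in counts by Nppa, Sln (-8.32) and Myl4 (-7.0) were called lower in EMPA + PFD than in untreated hearts, where untreated 2 alone was high. Sln was at 0.317, 518 and 0.632 CPM in untreated and 0.710, 0.478 and 0.418 in EMPA + PFD libraries, and Myl4 at 4.33, 1597 and 4.85 CPM in the former and 4.02, 4.18 and 4.28 in the latter. Between the control groups Sln (7.76) and Bmp10 (7.17) were called higher in control 9w, where control 9w 2 was at 0.984 and 0.984 CPM and control 9w 1 and 3 were high. Of the 6, 0 were called in HFpEF (1 lower at an unadjusted p under 0.05). Their summed CPM was 3285, 6125 and 4649.7 in control 5w, 2086, 273 and 1968 in HFpEF, 5198, 188 and 23341 in control 9w, 48.5, 14873 and 485 in untreated, 698 and 5172 in EMPA, 2983 and 62.6 in PFD and 87.6, 382 and 154 in EMPA + PFD libraries, high in untreated 2 and control 9w 3, the 2 libraries with the most Vsig4. Of 8 ventricular cardiomyocyte genes, led by Myh6, Ryr2 (-1.24) and Actc1 (-2.0) fell in HFpEF, Actc1 also fell from control 5w to control 9w (-1.66), and Ryr2 rose with EMPA + PFD (1.10). Their summed CPM was 79773, 32493 and 36382 in control 5w, 10375, 20314 and 31053 in HFpEF, 32443, 38377 and 34706 in control 9w, 61701, 17314 and 50456 in untreated, 40749 and 31215 in EMPA, 58058 and 65248 in PFD and 60438, 85224 and 71643 in EMPA + PFD libraries, lowest in HFpEF 1, where 35 members were at their highest, and highest in EMPA + PFD 2, where 18 were at their lowest. A member's CPM is a share of all RNA, so levels per macrophage and the amount of cardiomyocyte RNA cannot be told apart.

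The other lists were small. Beside them, 4.28% of all genes rose and 4.41% fell in HFpEF, and 7.46% rose and 7.21% fell between the control groups. Of 15 neutrophil genes 7 were tested, with Mpo, Elane, Mmp9, Camp, Ngp, Fpr1 and Ltf too low to test and Fpr2 not analysed here. Lcn2, the most counted of these, rose in HFpEF (1.19) and from control 5w to control 9w (1.85), and 0 were called with EMPA + PFD (4 at an unadjusted p under 0.05). Of 6 dendritic cell genes, led by Zbtb46, 0 were called in HFpEF (1 at an unadjusted p under 0.05) or with EMPA + PFD (2), while Clec9a rose (1.54) and Xcr1 fell (-2.23) between the control groups. Of 9 mast cell genes, led by Kit, Cpa3 rose in HFpEF (1.94), with 0 called with EMPA + PFD (0 at an unadjusted p under 0.05) or between the control groups (0). Of 8 smooth muscle and pericyte genes, led by Abcc9, 0 were called in HFpEF (3 at an unadjusted p under 0.05) or with EMPA + PFD (2), and Myh11 rose between the control groups (1.33). Of 5 red blood cell genes, led by Hbb, Hba-a1 rose in HFpEF (2.69) and Slc4a1 with EMPA + PFD (3.74). In untreated against HFpEF, Hba-a1 (-4.11), Hbb (-3.27), Alas2 (-3.52) and Slc4a1 (-3.52) fell, and Hbb (-2.65) and Alas2 (-2.92) were lower in untreated than in control 9w. Between the control groups 0 of the 5 were called (1 lower at an unadjusted p under 0.05). All 3 mesothelial genes rose in HFpEF (Upk1b, Wt1 and Msln, led in counts by Wt1), with 0 called with EMPA + PFD (0 at an unadjusted p under 0.05), and Wt1 also rose between the control groups (1.84). Of 3 adipocyte genes, Fabp4, the most counted, rose in HFpEF (1.42) and from control 5w to control 9w (1.87), and 0 were called with EMPA + PFD (1 at an unadjusted p under 0.05). No list held a tested marker at 0 counts in all 19 libraries.

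The RefSeq promoter windows of the members (build GRCr8, 300 bases each, 30 of 42 members matched) were searched on both strands. The sequence sought was GAGGAAGT, a binding motif of PU.1, or its reverse complement ACTTCCTC. It was found in 3 of 30 members (10%) and in 810 of 33469 windows in all (2.42%). The 3 members were Ctss and Cd53, which fell between the control groups, and F13a1, which was not called. Stretches around the motif are printed 5′ to 3′ to show where these letters lie, with the motif in capitals. Those of Ctss at chr2:185775368-185775397 (+ strand) and F13a1 at chr17:28021179-28021208 (+ strand) are 30 bases with 11 on either side of the motif. In neither does the motif lie wholly before the annotated gene. That of Cd53 at chr2:197087926-197088146 (- strand) is the 221 bases before the annotated gene, with the motif starting 17 bases before it. A match is a description of the sequence and shows no binding.
Ctss: aatgaaagttcACTTCCTCgttgtggatac
F13a1: taagtccttttGAGGAAGTacccagaggca
Cd53: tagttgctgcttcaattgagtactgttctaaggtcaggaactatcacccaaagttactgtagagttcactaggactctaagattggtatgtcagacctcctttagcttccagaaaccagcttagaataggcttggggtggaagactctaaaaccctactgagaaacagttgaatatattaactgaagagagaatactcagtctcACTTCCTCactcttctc

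Some counts may be shared with other genes. Lyc2, a neighboring lysozyme gene for which RefSeq gives Lyz2 as a synonym, had 8 to 110 counts, against 909 to 25568 for Lyz2. Mrc1, Folr2, Vsig4, F13a1, Adgre1, Msr1, Itgb2, Cd86, Spi1, Lcp1 and Plek overlap other annotated genes in GRCr8 (Vsig4 overlaps Heph and Lcp1 overlaps Lrrc63), and the counting mode and strand setting are not given in the sources used here, so their values are uncertain to that extent.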

How the data were processed

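Rat heart RNA was sequenced in 19 libraries of 7 groups. The authors trimmed reads with Trim Galore, checked them with FastQC, aligned them to rn6 with HISAT2 and counted them per gene with HTSeq, and the deposited values are these counts, used unchanged. Not given in the sources used here are the tool versions, the annotation version and how HTSeq treated strand and overlaps.

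Counts were analysed in R 4.3.3 with edgeR 4.0.16, limma 3.58.1 and DESeq2 1.42.0. After filterByExpr, 12388 of 17455 genes were kept, TMM factors were computed and 1 quasi-likelihood model of 7 groups and 19 libraries was fitted, with 9 comparisons. P-values were adjusted by Benjamini-Hochberg over all tested genes. The SE is the absolute log2 fold change over the square root of F, and log2 CPM used a prior count of 2. Comparisons that share libraries are not independent. The biological coefficient of variation was 0.257. The fit was tested on simulated data.

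Members and lists were chosen with earlier results of these data known. Values in every library are given for the 14 members called in most comparisons (ties by smallest p) and for the 3 most abundant of each list (Csf1r, C1qc and Mrc1, then Lyz2, Lcp1 and Ncf1). From the other lists, genes called in HFpEF or EMPA + PFD are named, at most 4 each, and those named for other comparisons were picked after their values were seen.

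The alternatives were 2 other normalizations, no filter beyond 1 count, at least 10 counts in every library, DESeq2, only the groups compared, adjusted p alone, a replicate block, a term for Y-linked counts and leaving out each library in turn. A fit of only the libraries with Y-linked counts was added after seeing the data. Ddx3, which followed Eif2s3y, and the rat MHC genes RT1-Bb and RT1-A3, which followed RT1-CE16, served only to tell libraries apart.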

Additional observations from a re-analysis of the deposited data

Results flagged for a closer look

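Lyve1 was called in the test of a difference between the disease effects at week 5 and week 9, and the call was not kept in every fit. It was 1 of 40 members, where 5.67% of all genes were called higher. HFpEF libraries had 189.6, 52.3 and 117 CPM against 31.4, 29.2 and 24.1 in control 5w, while untreated libraries had 28.6, 84.2 and 33.6 CPM against 72.5, 44.4 and 132 in control 9w. The difference of the differences was 2.85 on the log2 scale, with an SE of 0.795 (edgeR's quasi-likelihood test, Benjamini-Hochberg adjusted p = 0.0224). Over the 12 libraries left out in turn it ran from 2.35 to 3.51, and the call was kept in 7 of these 12 fits, with adjusted p of 0.00572 to 0.0641 (edgeR's quasi-likelihood test, Benjamini-Hochberg). It was also lost with the replicate block, at 2.59 and an adjusted p of 0.0521 by the same test. The 4 groups differ in Y-linked and RT1 counts as well, so time and those differences cannot be told apart. Both control groups entered it, and Lyve1 was higher in control 9w than in control 5w. Within control 9w and untreated, Lyve1 was highest in control 9w 3, untreated 2 and control 9w 1, which held transcripts typical of atrium. The control 5w libraries, with 3285, 6125 and 4649.7 summed CPM of atrial genes, were low in Lyve1. A part of atrial tissue in the Lyve1 values was not tested.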

How the results depend on the processing

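No called value changed sign under any setting tried. Counts of members below that stand without a share of all genes describe the members alone. In HFpEF against control 5w, the 2 members called became 3, with Mertk, by adjusted p alone, where 1218 of 12388 genes were higher and 1260 lower. These 2 became 1 with relative log expression normalization, the replicate block, only the groups compared or DESeq2. They also became 1, then Cybb, lower, with the Y-linked term or only the libraries with Y-linked counts. In untreated against HFpEF, 0 called became 24 with the Y-linked term and 18 by DESeq2, while 0.194% of all genes became 2.09% and 3.56%. In EMPA + PFD against untreated, 1 became 2 with upper quartile normalization, which moved the median of all genes there to -0.12, 3 by DESeq2, and 0 with at least 10 counts in every library (where 37 members and 10549 genes were tested), the replicate block, the Y-linked term or only the groups compared. For the week 5 minus week 9 difference, 1 became 0 with the replicate block and 2 with the Y-linked term. Only HFpEF holds both kinds of library, so in comparisons with HFpEF this term leaves HFpEF 2 alone or takes it out. The cause was not tested.

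The Y-linked term moved the members' median to -0.53 in HFpEF, -0.87 in untreated against control 9w, 0.72 with EMPA + PFD and 1.10 with EMPA, and only the libraries with Y-linked counts gave -0.47 in HFpEF, whose remaining library was assumed to vary like the other groups. Under the 7 other settings medians stayed within 0.41 to 0.47 (HFpEF), 0.48 to 0.58 (untreated against control 9w), -1.22 to -1.18 (control groups) and -0.75 to -0.62 (EMPA + PFD). Leaving out 1 library at a time gave 0 to 6 members called in HFpEF, 14 to 27 between the control groups, 0 to 24 in untreated against HFpEF, 0 to 3 with EMPA + PFD and 0 to 2 for the week difference, whose median ran from -0.48 to 0.29. Shares of all genes stand above for some of these fits, and no range here is set against them.

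Of 358 refits of the 24 members called between the control groups, 309 kept the call. It was 14 of 30 for Lyve1 and Lgals3 in HFpEF, 6 of 12 for Vsig4 and 14 of 20 for Lyve1 in the week difference. Libraries of the same replicate number did not deviate together (correlations from -0.53 to 0.35), so the block pairs libraries by number only. With it, C1qc, Cd53, Lcp1 and Lyve1 lost their call between the control groups. Members with few counts, such as Vsig4 and Cd86, are limited by depth.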
